A study of Mus musculus with 7 samples.

Results

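The 10 genes described here encode proteins that hold back mTORC1, or that control it at the lysosome, and they were chosen by symbol from the 49382 genes of an RNA-seq expression table. They are Ddit4 and Ddit4l, the sestrins Sesn1, Sesn2 and Sesn3, the tuberous sclerosis genes Tsc1 and Tsc2, the folliculin gene Flcn, the Rag GTPase gene Rragd, and Deptor. Each symbol stood on a single row. The table comes from wild type primary mouse embryonic fibroblasts (MEFs), which were cultured from embryos at E13.5 to E14.4 after removal of the head and the fetal liver, used at passages 3 to 7, and plated at 10000 cells per cm2. These embryonic stages and passages are those of the sample labels, and the study's methods give slightly different limits for both. It holds 7 libraries, 1 from control cells and 1 from each of 6 conditions. Oxidative stress was 10 µM sodium arsenite for 3 h, osmotic stress was 100 mM added NaCl for 3 h, and ER stress was 1 µM thapsigargin, which blocks the calcium pump of the ER, for 10 h. Glucose-free medium, glutamine-free medium and 0.1% oxygen (hypoxia) were each applied for 10 h. The same control library serves for 3 h and 10 h.

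mTORC1 is a protein kinase complex that switches cells toward protein synthesis and growth when growth factors, amino acids, energy and oxygen are sufficient. Growth factor signals reach it through the small GTPase RHEB, which the TSC1-TSC2 complex inactivates, and amino acid signals reach it through the Rag GTPases, which bring it to the lysosome. DDIT4 (also called REDD1) acts through TSC, the sestrins act on the GATOR complexes above the Rags, and DEPTOR binds mTOR itself. Several of these genes are known transcriptional targets of stress factors, Ddit4 of HIF, ATF4, p53 and the glucocorticoid receptor, and Sesn2 of ATF4, NRF2 and p53. Sesn1 is a known target of p53 and FOXO factors, and Sesn3 of FOXO factors. In fibroblasts they connect shortage of oxygen or nutrients to growth control. The libraries measure their mRNA, not the activity of the complex.

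Values are TPM, which divide the estimated reads of each transcript by its length and bring each library to a total of 1000000, so that levels of different genes can be set side by side. Changes are differences of log2(TPM + 1) from the control library, which understate the change of genes near 1 TPM. A gene is said to have risen or fallen where the change passed 2-fold on that scale. No condition had a replicate, so no change could be set against the spread between cultures, no p-value is given, and whether neighbouring levels in an order differ is not known. TPM keeps no read count and the depth is therefore unknown. Deptor, with a mean of 1.97 TPM, missed the minimum mean of 2 TPM that 12909 genes met, and the other 9 members passed it. The median change of those 12909 genes lay between -0.16, in oxidative stress, and 0, in ER stress.

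The 8 fibroblast markers Col1a1, Col1a2, Col3a1, Pdgfra, Pdgfrb, Thy1, Vim and Fn1 were detected in all libraries and summed to between 8721 TPM, in ER stress, and 16202 TPM, in hypoxia. Summed TPM ran from 6.76 to 14.6 for 6 macrophage markers, from 2.94 to 7.31 for 4 endothelial markers, from 3.88 to 11.6 for 4 epithelial markers and from 0 to 1.01 for 5 erythroid markers. The 4 skeletal muscle markers summed to 50.9 to 187 TPM, nearly all from Des and Acta1, while the myogenic factor gene Myod1 did not exceed 0.108 TPM. In bulk RNA, fewer cells of a type and less RNA per cell cannot be told apart.

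Of the 9 members that passed the filter, 3 passed 2-fold in 1 condition or more and 6 in none. The share of all genes that did so in 1 condition or more was not computed, so this count cannot be set against it. Ddit4 rose in osmotic stress and in hypoxia, Sesn2 fell in osmotic stress, and Ddit4l fell in ER stress. By single condition, 3.08% of the 12909 genes rose and 8.76% fell in osmotic stress, and 3.57% rose and 2.64% fell in hypoxia. In ER stress 8.60% rose and 11.0% fell. No member passed 2-fold in oxidative stress, where 3.94% of genes rose and 4.85% fell (4.75% and 3.20% with the median of all genes set to 0), in glucose depletion (1.83% and 2.41%) or in glutamine depletion (3.21% in each direction). With 9 genes per condition, a count of 0 or 1 does not set the members apart from genes in general.

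**Figure D1:**
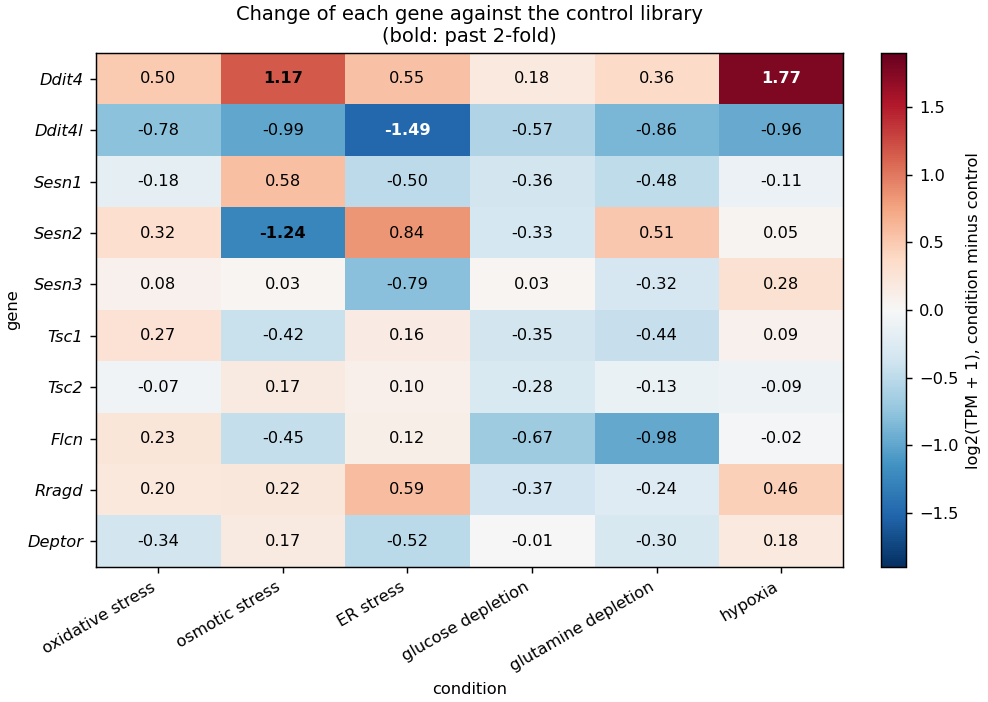
Heat map of the change of each of the 10 genes (rows) in each of the 6 conditions (columns), as log2(TPM + 1) minus the control library, with changes past 2-fold in bold and 1 library per condition. Ddit4 is above 0 and Ddit4l below 0 in all 6 columns, and Ddit4 in hypoxia (1.77) and Ddit4l in ER stress (-1.49) have the largest positive and negative values.

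The region before the start of Ddit4 and of Sesn2 is printed here because these genes moved apart in osmotic stress and hypoxia. The sequences are those of RefSeq on GRCm38.p6, in the direction of transcription and on the minus strand in both cases, and end where an annotated exon begins. Capitals mark the hypoxia response element cores ACGTG and GCGTG and the CCAAT box (CCAAT, written ATTGG on the other strand).
Ddit4, chr10:59951835-59952020: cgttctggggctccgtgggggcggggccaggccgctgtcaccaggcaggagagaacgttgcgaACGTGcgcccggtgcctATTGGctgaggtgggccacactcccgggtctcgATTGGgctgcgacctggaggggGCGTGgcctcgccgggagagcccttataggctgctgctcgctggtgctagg
Sesn2, chr4:132510502-132510706: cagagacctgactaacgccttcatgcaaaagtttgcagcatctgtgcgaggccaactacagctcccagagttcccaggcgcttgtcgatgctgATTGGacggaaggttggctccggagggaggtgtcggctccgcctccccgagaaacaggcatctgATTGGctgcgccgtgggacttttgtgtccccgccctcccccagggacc

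Windows of 250 bases before the RefSeq start were matched for 9 of the 10 members, with 2 windows for Sesn1. Both strands were searched. The window of Ddit4 was the only one of the 10 to hold ACGTG, which 16.6% of the 32851 mouse windows of this length hold, and it also held 1 GCGTG, found in 28.2% of windows. Single GCGTG matches stood in the windows of Ddit4l, Tsc1 and Tsc2, and 2 in a window of Sesn1. The windows of Ddit4 and Sesn2 each held 2 CCAAT boxes, as 33.8% of windows hold at least 1. No member window held the ATF4 response element TGATGNAA (3.45% of windows), the CLEAR E-box CACGTG of TFEB (6.02%), which contains ACGTG, or the FOXO site GTAAACA (3.17%). Such matches describe letters in these windows and say nothing about binding.

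Ddit4, on chromosome 10 from 59949669 to 59951834 (minus strand, GRCm38), was among the most abundant members. It stood at 35.4 TPM in the control, 40.4 TPM in glucose depletion, 45.8 TPM in glutamine depletion, 50.6 TPM in oxidative stress, 52.5 TPM in ER stress, 81.1 TPM in osmotic stress and 123 TPM in hypoxia. The control was thus the lowest of the 7 libraries and hypoxia the highest. Ddit4 was 3.48 times its control level in hypoxia (log2 change 1.77), rank 242 from the largest rise among 12909 genes, and 2.29 times in osmotic stress (1.17), rank 304. In ER stress the log2 change was 0.55, and in oxidative stress it was 0.50. Among the 10 h libraries, the level in hypoxia was 2.35 times that in ER stress, and among the 3 h libraries the level in osmotic stress was 1.60 times that in oxidative stress. Measured from the median of the 7 libraries in place of the control, the value in osmotic stress was 0.67 and did not pass 2-fold.

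Its paralog Ddit4l (REDD2), on chromosome 3 from 137621612 to 137628333 (plus strand), encodes a related inhibitor of mTORC1. The control library had the highest level, 18.2 TPM. Levels were 12 TPM in glucose depletion, 10.2 TPM in oxidative stress, 9.55 TPM in glutamine depletion, 8.89 TPM in hypoxia, 8.68 TPM in osmotic stress and 5.83 TPM in ER stress. All 6 conditions thus lay below the control, the reverse of Ddit4. The log2 change was -1.49 in ER stress, and the values in osmotic stress (-0.99) and hypoxia (-0.96) lay just short of 2-fold. All 6 changes share the one control library, and from the median of the 7 libraries the value in ER stress was -0.63, short of 2-fold. Within a library, the ratio of Ddit4 to Ddit4l TPM does not depend on the control. It was 1.94 in the control, 3.38 in glucose depletion, 4.80 in glutamine depletion, 4.96 in oxidative stress, 9.0 in ER stress, 9.34 in osmotic stress and 13.9 in hypoxia.

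**Figure D2:**
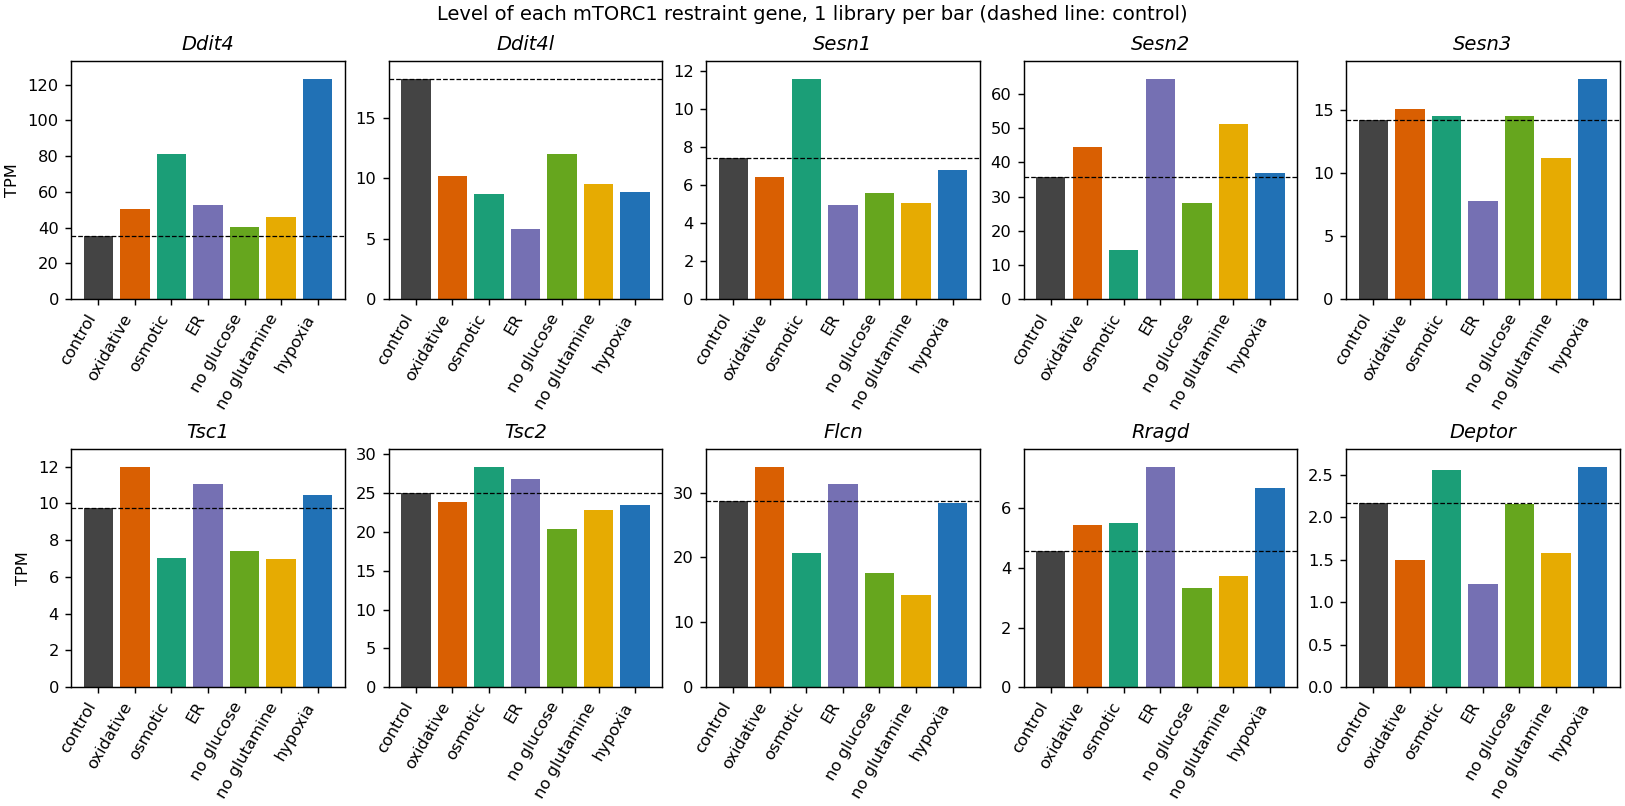
Bars give the TPM of each of the 10 genes in the control library and the 6 conditions (1 library per bar, no error bars, own linear axis from 0 in each panel), with a dashed line at the control. Ddit4 is lowest and Ddit4l highest in the control, Sesn2 is highest in ER stress (64.5 TPM) and lowest in osmotic stress (14.5 TPM), and Tsc2 stays between 20.4 and 28.4 TPM.

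The sestrins are stress-inducible proteins that bind GATOR2 and so restrain the Rag GTPases, and SESN2 is known as a sensor of leucine. Sesn2, on chromosome 4 from 132492032 to 132510501 (minus strand), had the widest range of the 10 members on the log2(TPM + 1) scale, while Ddit4 had the widest in TPM. Levels of Sesn2 were 14.5 TPM in osmotic stress, 28.1 TPM in glucose depletion, 35.6 TPM in the control, 36.8 TPM in hypoxia, 44.5 TPM in oxidative stress, 51.3 TPM in glutamine depletion and 64.5 TPM in ER stress. Osmotic stress and ER stress thus form the ends of the order, with the control between them. Sesn2 fell to 40.7% of the control in osmotic stress (log2 change -1.24) and was 1.81 times the control in ER stress (0.84), short of 2-fold. In glutamine depletion it was 1.44 times the control (0.51). At 3 h, oxidative stress had 3.08 times the level of osmotic stress, and at 10 h glutamine depletion had 1.82 times the level of glucose depletion. The hypoxia value, 0.05, contrasts with the rise of Ddit4 in the same library. Ddit4 and Sesn2 were almost equal in the control, with a ratio of 0.995, and this ratio was 5.60 in osmotic stress, 3.35 in hypoxia and 0.814 in ER stress.

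Sesn1, on chromosome 10 from 41809935 to 41908424 (plus strand), had its highest level in osmotic stress, the condition in which Sesn2 was lowest. It stood at 11.6 TPM there, 7.44 TPM in the control, 6.81 TPM in hypoxia, 6.44 TPM in oxidative stress, 5.59 TPM in glucose depletion, 5.03 TPM in glutamine depletion and 4.96 TPM in ER stress. The log2 change in osmotic stress was 0.58 and in ER stress -0.50, so that neither passed 2-fold. Sesn3, on chromosome 9 from 14275067 to 14333101 (plus strand), was within 11.2 to 17.5 TPM in 6 libraries, including 14.2 TPM in the control, 14.5 TPM in both osmotic stress and glucose depletion and 15.1 TPM in oxidative stress. In ER stress it was 7.73 TPM, a log2 change of -0.79. At 10 h, hypoxia had 2.26 times the Sesn3 level of ER stress.

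Summed over the 3 genes, sestrin mRNA ranged from 40.6 TPM in osmotic stress to 77.2 TPM in ER stress, with 57.2 TPM in the control. Its make-up differed more than its sum. Sesn2 supplied 62.2% of the sum in the control, 83.5% in ER stress, 76.0% in glutamine depletion, and 35.7% in osmotic stress. In osmotic stress Sesn3 held 35.8% and Sesn1 28.5%, against 24.7% and 13.0% in the control. These shares are computed within each library and do not move with the scaling of TPM. In the other 3 libraries the share of Sesn2 was 67.4% (oxidative stress), 60.3% (hypoxia) and 58.3% (glucose depletion).

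**Figure D3:**
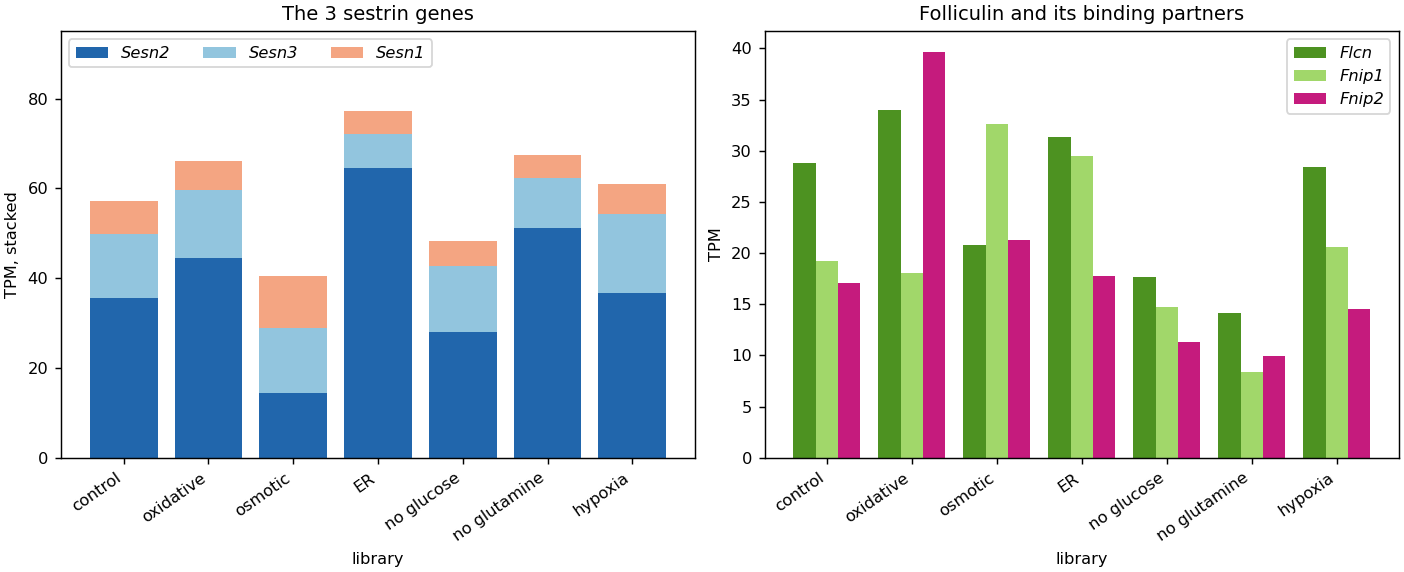
Left, TPM of Sesn2, Sesn3 and Sesn1 stacked in each of the 7 libraries, and right, TPM of Flcn, Fnip1 and Fnip2 side by side in the same libraries (1 library each, no error bars). The stack is tallest in ER stress (77.2 TPM) and shortest in osmotic stress (40.6 TPM), and in glutamine depletion Flcn, Fnip1 and Fnip2 are all at their lowest, 14.1, 8.34 and 9.96 TPM.

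TSC1 stabilises the complex in which TSC2 acts as the GTPase-activating protein of RHEB. Tsc2, on chromosome 17 from 24595816 to 24632630 (minus strand), was the steadiest member. Its levels were 20.4 TPM in glucose depletion, 22.8 TPM in glutamine depletion, 23.5 TPM in hypoxia, 23.8 TPM in oxidative stress, 25 TPM in the control, 26.8 TPM in ER stress and 28.4 TPM in osmotic stress. The highest was 1.39 times the lowest, and 8.94% of the 12909 genes had a narrower range of log2(TPM + 1). Exons of Tsc2 share 693 bases with Pkd1, a gene on the opposite strand with a mean of 26.9 TPM. The counting is not stated to have used strand, so the Tsc2 level may include reads of Pkd1 from that stretch. Tsc1, on chromosome 2 from 28641228 to 28691167 (plus strand), stood at 6.96 TPM in glutamine depletion, 7.04 TPM in osmotic stress, 7.43 TPM in glucose depletion, 9.78 TPM in the control, 10.4 TPM in hypoxia, 11.0 TPM in ER stress and 12 TPM in oxidative stress. Its log2 changes lay between -0.44 and 0.27. Tsc2 mRNA exceeded Tsc1 mRNA in every library, from 1.98 times in oxidative stress to 4.03 times in osmotic stress.

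FLCN, the folliculin protein, works with FNIP1 or FNIP2 as the GTPase-activating protein of RagC and RagD and is needed for mTORC1 to restrain the lysosomal factor TFEB. It thus promotes one branch of mTORC1 signalling rather than restraining the complex. Flcn lies on chromosome 11 from 59791408 to 59810016 (minus strand). It was at 14.1 TPM in glutamine depletion, 17.7 TPM in glucose depletion, 20.8 TPM in osmotic stress, 28.4 TPM in hypoxia, 28.8 TPM in the control, 31.3 TPM in ER stress and 34.0 TPM in oxidative stress. Both nutrient depletions were the lowest libraries. The log2 change of -0.98 in glutamine depletion (49.1% of the control TPM) was just short of 2-fold and ranked 441 of 12909 from the largest fall, and the value in glucose depletion was -0.67, rank 644. With a pseudocount of 0.1 TPM the glutamine value was -1.02. The ratio of Flcn to Tsc2, taken within a library, was 0.620 in glutamine depletion, 0.867 in glucose depletion and 0.732 in osmotic stress, and between 1.15 and 1.43 in the other 4 libraries.

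The partner genes of folliculin, which are not among the 10 members, were also lowest in glutamine depletion. Fnip1 went from 19.3 TPM in the control to 8.34 TPM (log2 change -1.12) and was at 14.8 TPM in glucose depletion and 32.6 TPM in osmotic stress. Fnip2 was at 17.1 TPM in the control, 9.96 TPM in glutamine depletion (-0.72) and 11.3 TPM in glucose depletion (-0.56). Fnip2 rose in oxidative stress, to 39.7 TPM (1.17), where Fnip1 was at 18.0 TPM. In osmotic stress Fnip2 was at 21.3 TPM, so that both partners lay above the control there while Flcn lay below it, and in glutamine depletion all 3 genes were below their control level.

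Rragd, on chromosome 4 from 32983037 to 33022180 (plus strand), encodes RagD, one of a pair of alternative subunits with RagC and a known target of TFEB. It was at 3.32 TPM in glucose depletion, 3.72 TPM in glutamine depletion, 4.58 TPM in the control, 5.42 TPM in oxidative stress, 5.50 TPM in osmotic stress, 6.67 TPM in hypoxia and 7.38 TPM in ER stress. Its lowest 2 libraries were again the nutrient depletions. The log2 change was 0.59 in ER stress and 0.46 in hypoxia, both short of 2-fold. Rragd made up 3.58% to 6.33% of the summed TPM of Rragc and Rragd, with 4.06% in the control and the highest share in hypoxia. Rragc alone ranged from 81.4 TPM in glutamine depletion to 148 TPM in osmotic stress.

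Deptor, on chromosome 15 from 55112317 to 55259271 (plus strand), was the least abundant member. It was at 1.22 TPM in ER stress, 1.5 TPM in oxidative stress, 1.58 TPM in glutamine depletion, 2.15 TPM in glucose depletion, 2.17 TPM in the control, 2.56 TPM in osmotic stress and 2.60 TPM in hypoxia. Its log2 changes, from -0.52 to 0.18, are compressed by the pseudocount at this level. Exons of Deptor share 303 bases with the antisense gene Gm9920, which had a mean of 0.102 TPM.

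Over the 10 members, 8 were below the control when glucose was left out and 8 when glutamine was, with median changes of -0.34 and -0.31. The medians of all 12909 genes were -0.02 and -0.09, with 25th to 75th percentiles from -0.20 to 0.12 and from -0.33 to 0.14. The share of all genes below the control was not computed, so the counts of 8 cannot be set against it. Deptor, which missed the filter, is among the 8 in both depletions, at -0.01 and -0.30. All these changes share 1 control library. In the other 4 conditions, 6 members were above and 4 below the control, and the medians lay between 0.07 and 0.14. Ddit4 was above the control in both depletions. The other gene above it was Sesn3 in glucose depletion (0.03) and Sesn2 in glutamine depletion.

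**Figure D4:**
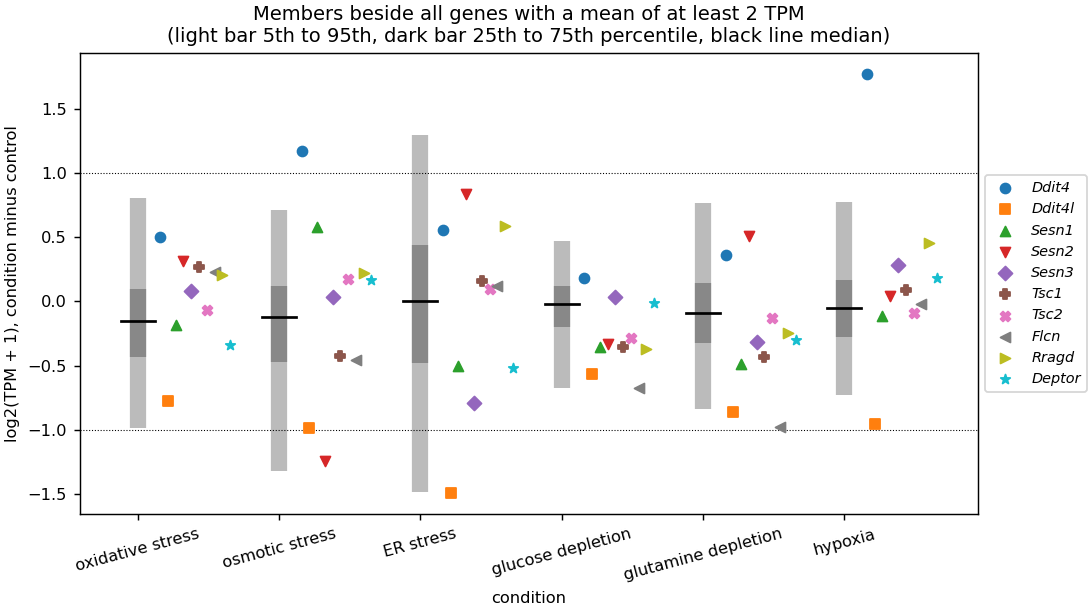
Symbols give the log2(TPM + 1) change of each of the 10 genes in each condition, beside bars for the 12909 genes that passed the filter (light, 5th to 95th percentile, dark, 25th to 75th percentile, black line, median). Ddit4 lies above the light bar in osmotic stress and hypoxia, Ddit4l lies at or below the lower end of the bar in ER stress, glutamine depletion and hypoxia, Flcn does so in both nutrient depletions, and the other symbols lie inside the bars.

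The rest of the pathway was read from 66 further genes of mTOR signalling, all of which stood in the table and 64 of which passed the filter. Of these, 12 passed 2-fold somewhere and 52 nowhere, and the matching share of all genes was not computed. By condition, 2 rose and 0 fell in oxidative stress, 0 rose and 4 fell in osmotic stress, 3 rose and 2 fell in ER stress, 0 changed in glucose depletion, 1 rose and 2 fell in glutamine depletion, and 0 rose and 1 fell in hypoxia. Each of these counts is a smaller share of the 64 genes than the share of all genes in the same condition and direction, for example 8.76% that fell in osmotic stress and 8.60% that rose and 11.0% that fell in ER stress. The median change per condition ranged from -0.13 to 0.04 in these 64 genes, beside -0.16 to 0 in the 12909.

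Among the 10 genes of the mTOR complexes, Prr5, a subunit of mTORC2, fell from 17.3 TPM to 5.63 TPM in osmotic stress (-1.47) and to 8.0 TPM in hypoxia (-1.03). Tti1, which helps assemble mTOR, fell from 12.2 to 4.67 TPM in osmotic stress (-1.22), and the kinase gene Mtor and the other 7 passed 2-fold nowhere. Of the 8 genes around RHEB none passed 2-fold. Of the 10 Rag, Ragulator and folliculin partner genes, Fnip1 and Fnip2 were the only ones to do so, as given above. Among the 11 genes of GATOR and KICSTOR, which relay amino acid signals, Mios (11.3 to 4.74 TPM, -1.10) and Wdr24 (10.5 to 4.34 TPM, -1.11), both of the sestrin-binding GATOR2, fell in osmotic stress. Neither passed 2-fold with the median of all genes set to 0 or with a pseudocount of 5 TPM. Depdc5, of the inhibitory GATOR1, fell in ER stress (15.7 to 6.64 TPM, -1.13) and was just past the threshold in glutamine depletion (7.35 TPM, -1.0).

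Of the 5 other amino acid sensor genes, 4 passed the filter. Lars, the leucyl-tRNA synthetase, rose from 58.9 to 162 TPM in ER stress (1.44), and Castor2, listed under its older symbol Gatsl2 and related to the arginine sensor CASTOR1, fell from 8.17 to 2.81 TPM (-1.27). Prkab2, the only one of 8 genes of AMPK and its activator LKB1 above the filter to pass 2-fold, encodes a regulatory subunit of this energy-sensing kinase. It rose from 10.3 TPM to 23.4 TPM in oxidative stress (1.11) and 24.8 TPM in glutamine depletion (1.19), and was at 21.4 TPM in hypoxia (0.99). Among 13 effectors of mTORC1, the translational repressor gene Eif4ebp1 rose from 207 to 476 TPM (1.20) and Maf1, a repressor of RNA polymerase III, rose from 24.2 to 59.6 TPM (1.27), both in ER stress.

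Lists of target genes of HIF, ATF4, p53, FOXO and TFEB were read in the same libraries, with the members left out of them. Targets of NRF2 and of the glucocorticoid receptor were not analysed here. All 10 HIF targets rose in hypoxia, with a median of 3.33 and Bnip3 (4.85) and Egln3 (4.80) at the top, and Ddit4 at 1.77 lay below each of them, the lowest being at 1.80. Egln3 met the filter only through hypoxia, with 94.7 TPM there and at most 2.44 TPM in the other libraries, so its place in this count was fixed by that level. In osmotic stress, where Ddit4 also rose, 0 of these 10 genes rose and 1 fell, with a median of 0.17. Of 10 ATF4 targets, 8 rose in ER stress, with a median of 1.84 and Atf3 (4.81) and Ddit3 (3.77) at the top, while Ddit4 and Sesn2 stayed at 0.55 and 0.84. In osmotic stress 2 of the ATF4 targets rose and 3 fell, with a median of 0.03. Chac1 fell from 26.2 to 4.28 TPM (-2.36) and Trib3 from 30.8 to 6.96 TPM (-2.00) in that library, next to the fall of Sesn2. The 2 that rose there were Atf3, from 3.02 to 13.2 TPM (1.82), and Nupr1, from 211 to 568 TPM (1.42). In glutamine depletion 3 rose and 0 fell, with a median of 0.54, close to the 0.51 of Sesn2. In hypoxia 2 rose and 0 fell, with a median of 0.59, while Sesn2 was at 0.05. The ATF4 targets were split there, with 7 above the control and 3 below it, the lowest being Asns at -0.09.

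**Figure D5:**
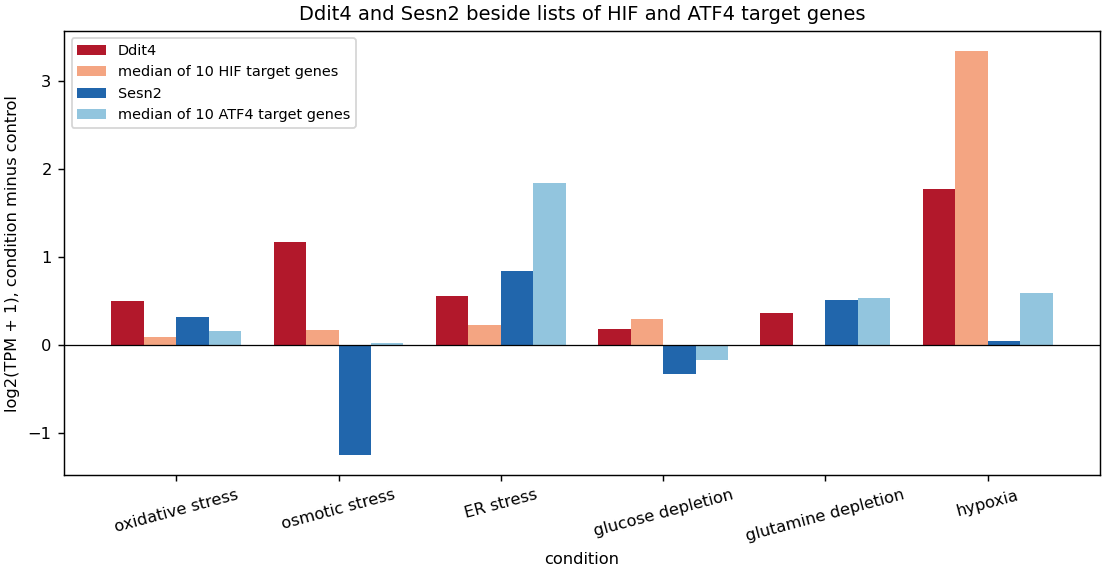
Bars give the log2(TPM + 1) change against the control for Ddit4 and Sesn2 and the median change of 10 HIF and 10 ATF4 target genes in each condition (1 library per condition, no error bars). Ddit4 is high with the HIF targets in hypoxia (1.77 and 3.33) and without them in osmotic stress (1.17 and 0.17). Sesn2 is highest where the median of the ATF4 targets is, in ER stress (0.84 and 1.84). In hypoxia Sesn2 is at 0.05 and that median at 0.59, with 7 of the 10 targets above the control and 3 below it.

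For p53, to which Sesn1 and Sesn2 are known to respond, the medians of 10 targets lay between -0.19 and 0.05 in all conditions, and in osmotic stress Btg2 fell (-1.26) while Mdm2 was at 0.96. Of 10 FOXO targets 8 passed the filter. In osmotic stress, where Sesn1 was highest, their median was -0.31, with Txnip at -3.12 and Bcl6 at 1.00. In ER stress, where Sesn1 and Sesn3 were lowest, 1 of the 8 rose and 3 fell, with Klf15 at 2.76 and Pik3ip1 at -2.53. Their median there was 0.28, with 5 genes above the control and 3 below it. Klf15, the one that rose, met the filter only through this library, with 15.2 TPM there and at most 1.40 TPM in the others. The 10 TFEB targets had medians of 0.26 in osmotic stress and -0.42 in ER stress, the condition with the highest Rragd, and in ER stress Sqstm1 rose (2.04) and Gla fell (-1.22). In osmotic stress all 10 targets were above the control, with Uvrag highest (1.35), beside Flcn and Rragd values of -0.45 and 0.22. In glucose depletion 9 of the 10 targets were below the control, with a median of -0.21, and 0 passed 2-fold. Flcn and Rragd were there at -0.67 and -0.37. In glutamine depletion, where Flcn was lowest, 6 were below and 4 above the control. Their median was -0.07 there, beside Flcn and Rragd values of -0.98 and -0.24. The medians of all genes that passed the filter were -0.12 in osmotic stress, -0.02 in glucose depletion and -0.09 in glutamine depletion. The share of all genes above or below the control was not computed, so these target counts cannot be set against it. The part of any of these factors in the members' levels was not tested.

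The genes most like Ddit4 and Sesn2 were taken as the 3 with the smallest Euclidean distance over the 6 log2 changes, among the 12909 genes. For Ddit4 these were Rora, which encodes a nuclear receptor of the circadian clock (distance 0.73), Letm2 (0.75) and Jmjd6, which encodes a JmjC hydroxylase (0.79). Rora changed by 1.29 in osmotic stress and 1.17 in hypoxia, and Jmjd6 by 0.69 and 1.29. For Sesn2 they were the noncoding transcript 4933407K13Rik (0.34), Zfp746 (0.39), a zinc finger gene, and Gpatch2l (0.44). Zfp746 fell in osmotic stress (-1.12) and was at 0.96 in ER stress. Each distance rests on 6 changes that share 1 control library. The gene 4933407K13Rik ran from 0.50 TPM in osmotic stress to 6.19 TPM in ER stress. Letm2 ran from 2.21 TPM in oxidative stress to 9.62 TPM in hypoxia. At such levels the pseudocount compresses changes.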

How the data were processed

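Total RNA of 7 MEF cultures was sequenced as stranded mRNA libraries with paired reads of 76 bases. The authors quantified transcripts with Kallisto (0.43.1 in the submitters' processing notes, default settings) on the Ensembl 90 cDNA set of GRCm38. They deposited TPM, each gene being the total of its transcripts. TPM are shares of a library, so a gene's value also moves when others take more or less of it, and no counting interval can be given.

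From the deposited TPM, log2(TPM + 1) minus the control was computed, and changes past 2-fold, the study's rule, were counted over genes whose mean reached 2 TPM. With 1 library per group no test was run. Groups came from the treatment labels. The members and gene lists, and with them the named genes, were chosen with earlier results of these data known. Named are all members, other pathway genes past 2-fold, the largest changes of a target list, and the 3 genes nearest to Ddit4 and to Sesn2. Rps6kb2 and the macrophage marker Itgam each stood on 2 rows, of which the first was used. Locations are those of GENCODE M21 on GRCm38, and promoter sequences are from RefSeq on GRCm38.p6. The steps were tested on simulated data. Alternatives were other pseudocounts, filters, thresholds, centring, removal of mitochondrially encoded genes and another reference. The steps ran in Python 3.11.15 with pandas 2.3.3 and numpy 2.4.6, and figures were drawn with matplotlib 3.10.9.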

Additional observations from a re-analysis of the deposited data

How the results depend on the processing

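Of 300 recomputed log2 changes of the 10 members, 294 kept their side of 2-fold and none of the called changes turned sign. Changes short of 2-fold counted as kept even where their sign turned. After centring on the median of all genes, Tsc2 turned in oxidative stress (-0.07 to 0.09). Flcn turned in hypoxia (-0.02 to 0.03) and Deptor in glucose depletion (-0.01 to 0.01). Turns also occurred with the median of the 7 libraries as reference. Ddit4l then stood at 0.09 in oxidative stress and 0.30 in glucose depletion. Ddit4 then stood at -0.32 in glucose depletion and -0.14 in glutamine depletion. Measured from the median of the 7 libraries, Ddit4 in osmotic stress (0.67) and Ddit4l in ER stress (-0.63) no longer passed 2-fold. Ddit4l in osmotic stress passed it with a pseudocount of 0.1 TPM (-1.06) and without mitochondrially encoded genes (-1.01), as did Ddit4l in hypoxia (-1.03) and Flcn in glutamine depletion (-1.02) with 0.1 TPM.

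Among the members, a 1.5-fold threshold counted 1 lower in oxidative stress, 2 lower in osmotic stress, 2 higher and 2 lower in ER stress, 1 lower in glucose depletion, 2 lower in glutamine depletion and 1 lower in hypoxia. At that threshold 16.2%, 19.5% and 21.3% of all genes were lower in oxidative, osmotic and ER stress, 19.0% were higher in ER stress, and 6.23%, 10.6% and 8.10% were lower in glucose depletion, glutamine depletion and hypoxia, so 1 or 2 of 9 members are not set apart. A 3-fold threshold left 0 higher and 0 lower in osmotic stress and 0 lower in ER stress. Of all genes, 1.65% and 3.37% were then higher and lower in osmotic stress, and 4.31% lower in ER stress. With 0.1 TPM, 2 were lower in osmotic stress, 1 in glutamine depletion and 1 in hypoxia, and without mitochondrially encoded genes 2 were lower in osmotic stress. The shares of all genes were 11.3%, 4.52% and 3.42% with 0.1 TPM, and 9.13% without mitochondrially encoded genes. From the median of the libraries 0 rose in osmotic stress and 0 fell in ER stress, beside 2.14% and 7.30% of all genes.

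For the 64 other pathway genes, the 1.5-fold threshold gave 4 up and 7 down in oxidative stress, 3 up and 7 down in osmotic stress, 11 up and 9 down in ER stress, 5 and 7 in glutamine depletion, 3 and 2 in hypoxia, and 4 down in glucose depletion. These are to be read against the shares of all genes given above. In addition, 7.27%, 6.56%, 7.47% and 7.23% of all genes were higher in oxidative stress, osmotic stress, glutamine depletion and hypoxia. At 3-fold 0 passed in any condition, where the shares of all genes ran from 1.20% (up, glucose depletion) to 4.31% (down, ER stress). With a pseudocount of 5 TPM 1 rose in oxidative stress and 1 fell in osmotic stress, while 0 fell in ER stress or hypoxia and 0 passed in glutamine depletion. Of all genes, 2.62% then rose in oxidative stress, and 3.27%, 6.03% and 1.55% fell in osmotic stress, ER stress and hypoxia. In glutamine depletion 1.93% rose and 1.42% fell. With 0.1 TPM 1 fell in oxidative stress, 1 rose in osmotic stress and 1 rose in hypoxia. The shares of all genes were 6.79%, 3.70% and 4.35%. At a mean of at least 10 TPM, 2 of 53 fell in osmotic stress and 1 in ER stress, beside 4.92% and 9.47% of all genes. After centring, 1 rose and 2 (Prr5 and Tti1) fell in osmotic stress, 1 (Fnip1) fell in glutamine depletion, and 1 rose and 0 fell in hypoxia. Of all genes, 3.64% rose and 7.08% fell in osmotic stress, and 2.47% fell in glutamine depletion. In hypoxia 3.87% rose and 2.41% fell. Without mitochondrially encoded genes 1 fell in glutamine depletion, beside 3.11% of all genes. From the median of the libraries 1 rose in oxidative stress, 1 rose and 2 fell in osmotic stress, 0 fell in ER stress and 1 fell in glutamine depletion. The shares of all genes, in the same order, were 2.97%, 2.14%, 5.82%, 7.30% and 1.04%.

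Every change rests on 1 library against 1 control, so differences between cultures cannot be told apart from the treatments. No paired analysis was possible because the labels give no replicates. Depth is unknown, which limits Deptor and Rragd most.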
